A study of Rattus norvegicus with 2 samples.

Results

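Mitochondrial ribosomal protein genes are described here in rat (Rattus norvegicus) embryonic stem cells, as the rows of the deposited gene table whose symbol starts with Mrpl (large subunit) or Mrps (small subunit) followed by a number. The pattern took 71 of the 23282 genes of the table, 42 of the large subunit and 29 of the small subunit, and each had a single row. Total RNA of wild-type cells was sequenced as 2 libraries, which the design text calls biological replicates, from the line RRRC#464 DA-EC8/Rrrc. This is a single line of the Dark Agouti strain, at passage 30, labelled with a normal karyotype and grown untreated in 2i medium, which holds inhibitors of MEK and GSK3. Both libraries form 1 group, so no contrast between conditions exists, no p-value is given, and the spread between the libraries may be technical. Levels are in RPKM, a read count divided by the length of the gene model in kilobases and by the library total in units of 1000000 reads, so that genes of different length can be compared.

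The mitochondrial ribosome is the machine inside the organelle that translates the few messages encoded by mitochondrial DNA, all of which specify subunits of the respiratory chain and ATP synthase. Its ribosomal RNAs come from the mitochondrial genome, while every one of its proteins is encoded in the nucleus, made in the cytosol and imported. Some of these proteins have counterparts in bacterial ribosomes, and others are found only in mitochondria. Pluripotent stem cells are known to rely strongly on glycolysis, yet keep an active respiratory chain.

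The read totals behind the libraries, taken from steps in the values, were 2991184 in replicate 1 and 3050685 in replicate 2. A gene with a model of 1 kb and 3 reads would therefore stand at 1.00 RPKM in replicate 1 and at 0.983 RPKM in the other, which covers counting error only. The labelled cell type was checked against its markers. All 8 pluripotency markers averaged 10 RPKM or more, among them Pou5f1, which encodes Oct4, at 584 ± 9.94 RPKM (SD, n = 2). Of 15 fibroblast and feeder cell markers 6 reached a mean of 1 RPKM, Col1a2, S100a4, Lum and Acta2 were listed at 0, and the list summed to 684 and 799 RPKM in replicates 1 and 2, of which Fn1 made 664 and 771 RPKM. All 6 were higher in replicate 2, and their part in the levels below was not tested.

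The 3 genes of the Mrps18 family show how widely related members differed, and a further pair shows how members can share a start region. Mrps18b, Mrps18a and Mrps18c descend from the gene of the same bacterial protein, and in known structures the Mrps18a protein sits in the large subunit despite its name. The 300 bases around each start, 250 before and 50 after it, are given for these genes from RefSeq (GRCr8 build). Mrps18b lies at chr20:2842756-2843055 (plus strand), Mrps18a at chr9:22367331-22367630 (minus strand) and Mrps18c at chr14:9122857-9123156 (minus strand). The window of Mrpl46, at chr1:142116981-142117280 (minus strand), is shown because the start of Mrps11 on the other strand lies 234 bp away in that build, and 267 bases of it are also in the Mrps11 window. Capitals mark matches, on either strand, to CCGGAAG (the core bound by ETS factors such as GABP), to GCGC, any base and TGCGC in a row (NRF1), and to AAGATGGC (YY1).
Mrps18b: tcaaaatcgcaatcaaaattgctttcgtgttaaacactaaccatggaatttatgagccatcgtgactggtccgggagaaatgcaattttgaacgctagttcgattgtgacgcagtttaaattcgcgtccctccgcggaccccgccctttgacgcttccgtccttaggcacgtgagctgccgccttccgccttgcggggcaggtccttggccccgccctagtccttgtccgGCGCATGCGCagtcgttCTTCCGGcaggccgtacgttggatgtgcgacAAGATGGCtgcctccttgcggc
Mrps18a: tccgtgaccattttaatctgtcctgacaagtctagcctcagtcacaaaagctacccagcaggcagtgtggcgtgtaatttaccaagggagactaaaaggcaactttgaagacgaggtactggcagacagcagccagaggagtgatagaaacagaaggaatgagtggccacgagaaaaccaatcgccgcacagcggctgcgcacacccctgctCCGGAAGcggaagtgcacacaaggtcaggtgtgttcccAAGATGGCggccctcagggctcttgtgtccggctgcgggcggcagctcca
Mrps18c: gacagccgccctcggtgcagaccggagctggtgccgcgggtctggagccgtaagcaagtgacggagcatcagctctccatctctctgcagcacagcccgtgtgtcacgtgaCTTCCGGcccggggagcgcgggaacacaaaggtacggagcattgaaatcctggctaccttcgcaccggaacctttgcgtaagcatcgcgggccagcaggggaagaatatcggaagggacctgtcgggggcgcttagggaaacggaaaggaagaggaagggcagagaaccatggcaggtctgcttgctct
Mrpl46: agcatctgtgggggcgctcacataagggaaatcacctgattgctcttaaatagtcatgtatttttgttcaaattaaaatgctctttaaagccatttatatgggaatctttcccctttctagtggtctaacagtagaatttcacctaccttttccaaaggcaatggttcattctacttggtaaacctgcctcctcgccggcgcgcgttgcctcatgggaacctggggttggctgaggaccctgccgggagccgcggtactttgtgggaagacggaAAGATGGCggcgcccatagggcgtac
The Mrps18b window holds all 3 motifs, the only member window of 56 that does, and the share among other windows was not computed. The Mrps18a window holds the ETS and YY1 motifs, the Mrps18c window the ETS motif alone and the Mrpl46 window the YY1 motif alone. A match is a run of letters and does not show that a factor was bound.

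Nearly all members were detected, and most averaged between 20 and 100 RPKM. Averaging 1 RPKM or more over both libraries, the limit used for detection, were 66 of 71 members, against 46.4% of all genes in the table. Levels of 10 RPKM or more were found in 64 members, against 29.4% of all genes and 63.4% of detected genes. A level of 100 RPKM was passed by 5 members, against 4% of all genes and 8.62% of detected genes. Between 20 and 100 RPKM lay 53 members, against 17% of all genes and 36.6% of detected genes, and the highest member stood 25.6-fold above the lowest detected one. The member median was 43.9 RPKM in replicate 1 and 42.4 RPKM in the other library, against 16.8 and 16.6 RPKM over all detected genes. In bulk RNA, a level shared by all cells and a higher level in some of them cannot be told apart.

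**Figure D1:**
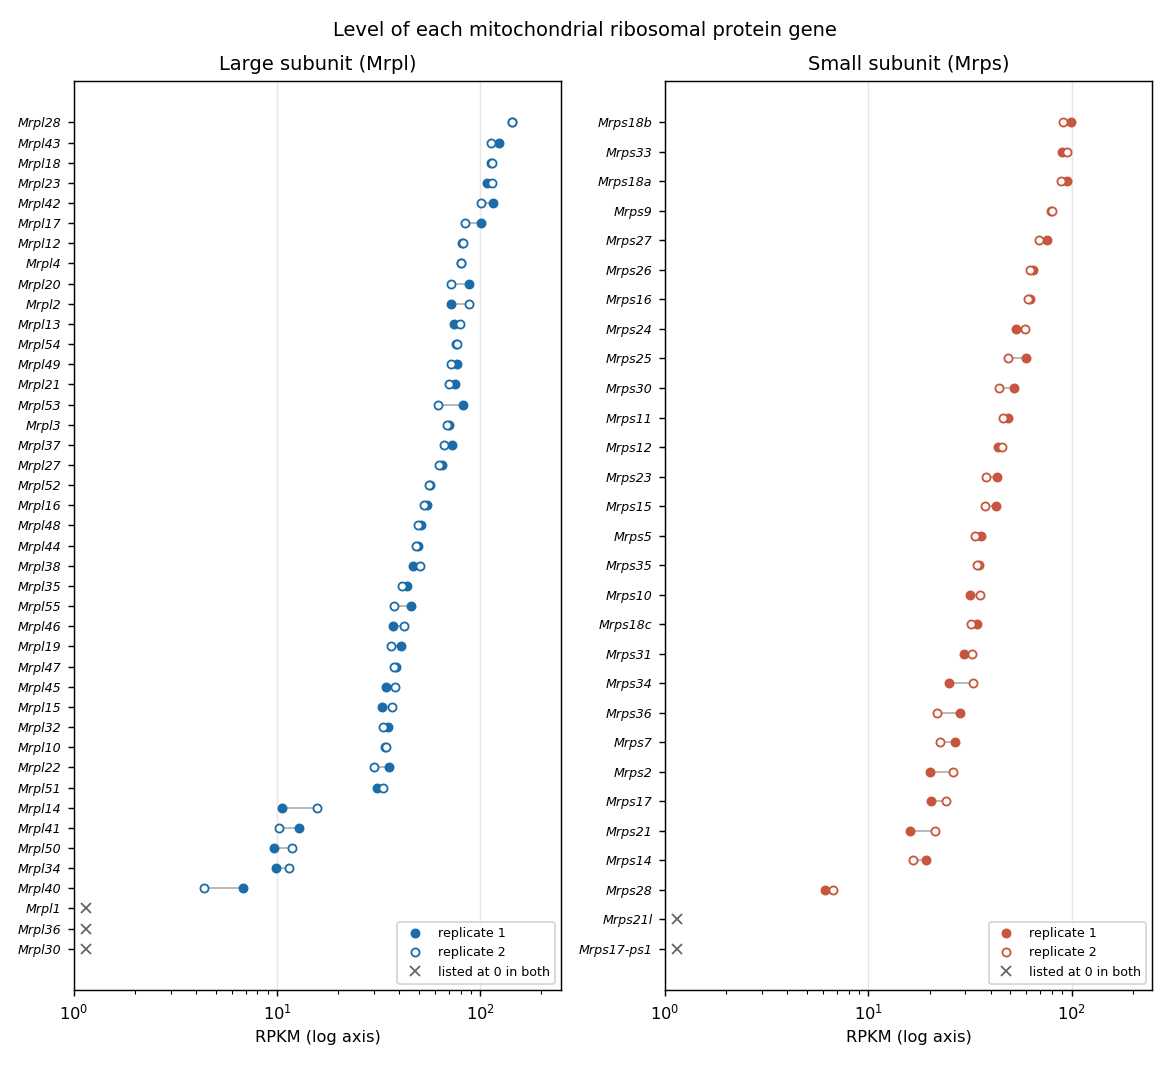
Level of each of the 71 genes in RPKM on a log axis, with the large subunit on the left and the small subunit on the right; filled points are replicate 1, open points replicate 2, and crosses genes listed at 0 in both. The large subunit reaches 143 RPKM with Mrpl28 and the small subunit 95.4 RPKM with Mrps18b, and 5 genes are listed at 0.

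The large subunit held all 5 members above 100 RPKM. Mrpl28, a protein with a bacterial counterpart (Entrez gene 497876, rn5 chromosome 10, 15307360 to 15312227), had 144 and 143 RPKM in replicates 1 and 2 (143 ± 0.410 RPKM, SD, n = 2). It lay above 94.8% of all detected genes. The mitochondria-specific protein gene Mrpl43 (Entrez gene 309440, rn5 chromosome 1, 272197964 to 272198767) had 123 and 113 RPKM. Mrpl18, which encodes a protein of the central protuberance, the knob where bacteria carry an additional ribosomal RNA, had 113 and 115 RPKM. The levels of these 3 genes did not overlap between Mrpl28 and the other two, while those of Mrpl43 and Mrpl18 did. Mrpl23, whose bacterial relative lines the exit of the peptide tunnel, had 107 RPKM in replicate 1 and 115 RPKM in replicate 2. Mrpl42, another protein without a bacterial counterpart, had 115 and 101 RPKM. Mrpl17 followed at 92.6 ± 12.1 RPKM, with 101 RPKM in replicate 1 and 84.0 RPKM in replicate 2.

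Further genes of the large subunit are given by the part of the ribosome their proteins form. Mrpl12 encodes the stalk protein that recruits translation factors and had 81.7 RPKM in replicate 1 and 82.3 RPKM in replicate 2. Its anchor on the stalk, Mrpl10, was lower at 33.8 and 34.3 RPKM, and these 2 genes were farther apart than their replicates. Around the peptidyl transferase centre, where peptide bonds form, Mrpl2 had 72.2 and 88.0 RPKM, Mrpl3 had 70.0 and 68.5 RPKM, and Mrpl27 had 65.0 and 62.3 RPKM. Along the peptide tunnel, Mrpl4 had 80.7 and 80.8 RPKM and Mrpl22 had 35.5 and 29.9 RPKM. Mrpl45, which docks the ribosome to the inner membrane near the tunnel exit, had 34.3 RPKM in replicate 1 and 38.1 RPKM in replicate 2. Mrpl44, a relative of RNase III, had 49.7 and 48.1 RPKM. Mrpl32, which is matured by the m-AAA protease before it joins the ribosome, had 35.3 and 33.3 RPKM. These genes were named after their values were seen, except Mrpl12 and Mrpl4.

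The lowest detected large subunit genes formed a step below the rest. Mrpl51 at 32.2 ± 1.43 RPKM was followed by Mrpl14 at 13.2 ± 3.69 RPKM, with no member of the subunit between them. Below Mrpl14 stood Mrpl41 at 11.5 ± 1.82 RPKM, Mrpl50 at 10.8 ± 1.54 RPKM and Mrpl34 at 10.7 ± 1.08 RPKM. Mrpl40, a protein of the central protuberance, was lowest, with 6.82 RPKM in replicate 1 and 4.37 RPKM in replicate 2. The values of Mrpl34, Mrpl50, Mrpl41 and Mrpl14 overlapped across the replicates, so their order is not fixed by these data. Mrpl40 lay below all of them in each replicate.

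Among the genes with an Mrps name, the Mrps18 genes spanned much of the range. Mrps18b (Entrez gene 294230, rn5 chromosome 20, 5442393 to 5448452) was highest, with 99.9 RPKM in replicate 1 and 90.9 RPKM in replicate 2. Mrps18a had 94.5 and 88.7 RPKM, which overlaps Mrps18b. Mrps18c, which takes the place of the bacterial protein in the small subunit, had 34.3 and 32.0 RPKM, clear of the other two. Mrps33, a mitochondria-specific protein gene, was at 92.3 ± 4.10 RPKM and Mrps9 at 80.04 ± 0.555 RPKM. Mrps27, which belongs to the pentatricopeptide repeat family of RNA-binding proteins, had 76.0 and 68.9 RPKM. Mrps26 was at 63.4 ± 1.13 RPKM, Mrps16 at 61.8 ± 0.667 RPKM and Mrps24, at the channel where messages enter, at 56.1 ± 4.27 RPKM. Mrps12, the protein of the decoding centre, had 43.6 RPKM in replicate 1 and 45.4 RPKM in replicate 2.

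At the lower end of the small subunit, Mrps28 had 6.14 RPKM in replicate 1 and 6.71 RPKM in replicate 2. Mrps14 was at 17.9 ± 1.74 RPKM, Mrps21 at 18.6 ± 3.62 RPKM and Mrps17 at 22.2 ± 2.74 RPKM. Mrps14 and Mrps21 overlapped, and Mrps28 stood apart from both. Like Mrps18a, the genes Mrps30 and Mrps36 carry an Mrps name for proteins that structures place elsewhere. Mrps30, found in the large subunit, was at 48.02 ± 5.89 RPKM. Mrps36, now named Kgd4 by RefSeq after the oxoglutarate dehydrogenase complex it belongs to, was at 25.04 ± 4.67 RPKM.

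Compared as groups, the large subunit had the higher median. It stood at 50.4 RPKM for the large and 35.9 RPKM for the small subunit in replicate 1, and 49.8 against 35.5 RPKM in replicate 2. On the log2(RPKM + 1) scale the large subunit median lay above that of the small subunit by 0.48 in each replicate, a difference larger than the spread between the libraries. The groups overlapped widely, since the quartiles of the detected members were 35.5 and 78.5 RPKM in the large subunit and 26.9 and 58.9 RPKM in the small subunit. The spread between libraries does not include the choice of members, and the size of the difference depended on it. It was 0.27 with means over members, 0.31 without the copies Mrps17-ps1 and Mrps21l, and 0.30 with the symbols that RefSeq now gives. With subunits assigned from known structures, so that Mrps18a and Mrps30 count as large, it was 0.28. Detection did not separate the subunits, with 39 of 42 large and 27 of 29 small subunit genes at 1 RPKM or more.

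Proteins with bacterial counterparts were compared with those specific to mitochondria. In replicate 1 the median was 42.7 RPKM for 41 conserved members and 51.2 RPKM for 25 mitochondria-specific members, and in replicate 2 it was 37.7 and 49.2 RPKM. Mrps18a, Mrps30, Mrps36 and the 2 copies described further on were in neither class. Mrps18b was counted as specific and Mrps18c as conserved, although both descend from the gene of the same bacterial protein. The difference without Mrps18b, at 95.4 RPKM the highest small subunit gene, was not computed. On the log2(RPKM + 1) scale the conserved minus the specific median was -0.26 and -0.38 in replicates 1 and 2, on average -0.32 ± 0.08 (SD, n = 2). Within the large subunit it was -0.05 ± 0.06, no larger than its spread between libraries. Within the small subunit it was -0.65 ± 0.18, between 15 conserved genes at a median of 33.8 RPKM and 9 specific genes at a median of 53.9 RPKM. All 3 genes of these classes that were listed at 0 were conserved genes of the large subunit. Without them the order in that subunit reversed, with conserved medians of 65.0 and 62.3 RPKM (replicates 1 and 2). The specific genes there, all detected, stood at 50.4 and 49.8 RPKM. The near-zero difference in the large subunit therefore depends on the genes listed at 0.

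Beside other large complexes the members stood above typical detected genes and below the cytosolic ribosome and the respiratory chain. Their median exceeded that of the 10814 detected genes by 1.32 ± 0.02 (log2(RPKM + 1), SD, n = 2), and 60 of 71 members lay above the detected median. The comparison gene set is chosen by its level, so the difference was 1.68 with detection at 0.3 RPKM and 0.98 with detection at 3 RPKM. Against 77 cytosolic ribosomal protein genes, which build the ribosome that makes nearly all other proteins, the member median differed by -0.71 in replicate 1 and by -0.62 in replicate 2. The cytosolic genes spread more widely, with quartiles of 28.6 and 431 RPKM among those detected, against 33.3 and 74.0 RPKM for the members. Of the 77 cytosolic genes 68 reached a mean of 1 RPKM, and 6 were listed at 0 in both replicates. How reads shared between genes were counted is not known, and its part in the cytosolic levels was not tested. The median difference therefore does not fix how far the members lie below the cytosolic ribosome. Against 76 oxidative phosphorylation subunit genes the member median differed by -1.56 in replicate 1 and by -1.62 in replicate 2. All members together made up 0.813% of the table's RPKM sum in replicate 1 and 0.797% of it in replicate 2, against 4.93% and 4.78% for the cytosolic ribosomal proteins.

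**Figure D2:**
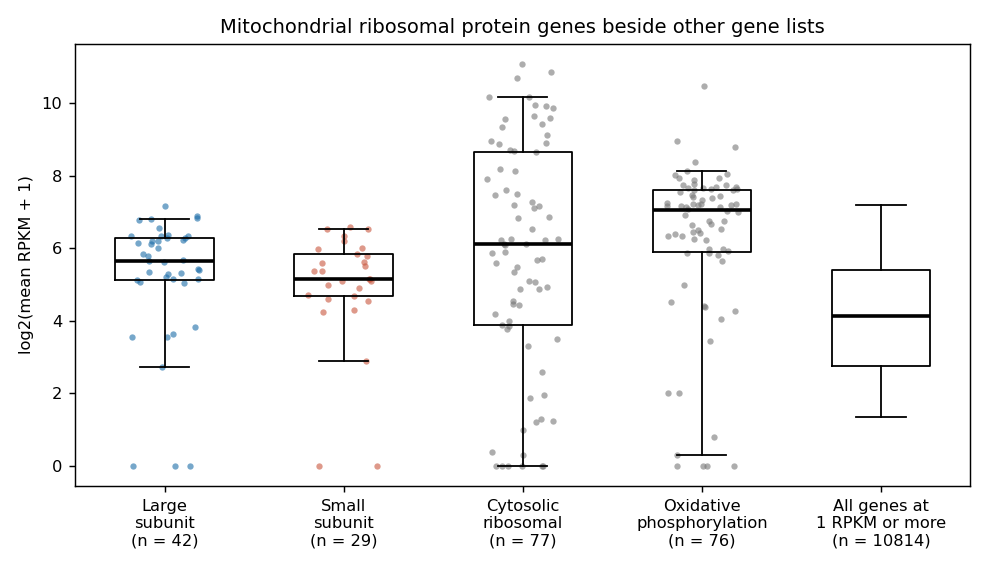
Mean level of each gene on the log2(mean RPKM + 1) scale in the large and small subunit (coloured) and in 3 comparison sets (grey); points are genes, boxes show median and quartiles, and whiskers the 5th to 95th percentile. The 42 large subunit genes lie higher at their median than the 29 small subunit genes, and both lie below the 76 oxidative phosphorylation genes.

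Genes at a listed 0 were few, and the copies in the table fall beside them. Mrpl1, Mrpl30 and Mrpl36 of the large subunit, and Mrps17-ps1 and Mrps21l of the small subunit, were listed at 0 in both replicates, against 38.2% of all genes. The last are copies, described in the table as a pseudogene of Mrps17 and as a gene like Mrps21. For each of Mrpl1, Mrpl30 and Mrpl36 the table holds a further row whose description is that of the same protein with the ending "-like", and those rows were also listed at 0. Leaving out the copies, 9 members had such a row, of which 3 were listed at 0 and 6 were detected, while all 60 members without such a row were detected. Mrps17, detected at 22.2 RPKM, was counted among these 60, although the table holds its pseudogene. How reads that map to several places were treated is not given in the sources used here, and the part of the copies in these zeros was not tested. A listed 0 therefore does not show that a gene was silent. Detected members with a copy included Mrpl42, Mrpl13, Mrpl41, Mrps11, Mrps18b and Mrps21, whose copies had a mean of at most 0.245 RPKM.

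Ribosomal proteins of the organelle that carry other symbols had similar levels. The symbols mrpl9, mrpl11 and mrpl24 are written in lower case in the table and fall outside the pattern, with 94.6 ± 5.85, 50.1 ± 5.15 and 54.9 ± 6.40 RPKM. By identifier, RefSeq now names a further 4 rows, beside Mrp63 and Ict1 below, as Mrps22 (75.07 ± 3.80 RPKM), Mrpl33 (53.2 ± 5.28 RPKM), Mrpl39 (31.6 ± 4.36 RPKM) and Mrps6 (5.60 ± 0.705 RPKM). Of 7 proteins whose symbols in the table do not start with Mrpl or Mrps, Ptcd3, an RNA-binding protein at the message entrance, was highest, with 129 and 137 RPKM. Aurkaip1 was at 67.8 ± 6.67 RPKM, the GTP-binding protein gene Dap3 at 66.3 ± 1.11 RPKM and Chchd1 at 40.9 ± 1.61 RPKM, all of the small subunit. In the large subunit, Ict1, which frees stalled peptides, was at 33.6 ± 2.36 RPKM, Gadd45gip1 at 28.4 ± 0.805 RPKM and Mrp63 at 7.39 ± 0.907 RPKM.

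Factors that work with the mitochondrial ribosome and have a row in the table were detected nearly throughout, against 46.4% of all genes. Above the median of detected genes lay 4 of 8 translation factors and 15 of 21 assembly genes, against 5407 of 10814 detected genes. All 8 measured translation factors reached 10 RPKM, with a list median of 36.4 ± 3.13 RPKM that falls in a gap between the 4 higher and the 4 lower genes. Tufm, the elongation factor that delivers charged tRNA, had 142 RPKM in both replicates. Oxa1l, which inserts new proteins into the inner membrane, was at 61.3 ± 1.82 RPKM and the translocase gene Gfm1 at 61.3 ± 1.30 RPKM. Mrrf, for ribosome recycling, was at 11.1 ± 0.303 RPKM, and the initiation factor gene Mtif2 was lowest at 10.2 ± 0.246 RPKM. Of 21 assembly and rRNA modification genes 19 reached 1 RPKM and 16 reached 10 RPKM, with a median of 19.97 ± 0.119 RPKM. The RNA helicase gene Dhx30 was highest at 64.6 ± 1.06 RPKM, ahead of Trub2 at 43.6 ± 2.05 RPKM and the m-AAA protease gene Afg3l2 at 40.8 ± 1.41 RPKM. Ybey had 0.681 and 1.19 RPKM, and the rRNA methyltransferase gene Nsun4 was listed at 0 in both replicates.

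Genes that make and keep mitochondrial RNA ranged widely. Lrpprc, which stabilises mitochondrial messages, was at 133 ± 5.52 RPKM. Tfam, which packages mitochondrial DNA and takes part in its transcription, was at 104 ± 7.08 RPKM. Slirp, the partner of Lrpprc, was at 16.2 ± 1.59 RPKM, Mterf at 8.81 ± 0.189 RPKM and the initiation factor gene Tfb2m at 1.61 ± 0.477 RPKM. Among 8 nuclear regulators of such genes 7 reached 1 RPKM. Yy1 was at 52.4 ± 3.57 RPKM, Pprc1 at 51.6 ± 0.976 RPKM and Nrf1 at 41.1 ± 2.68 RPKM, while the co-activator gene Ppargc1b was at 2.10 ± 0.418 RPKM and its relative Ppargc1a had 0.137 RPKM in replicate 1 and 0 in replicate 2. Gabpa, which encodes the DNA-binding subunit of the ETS factor GABP, averaged 27.7 ± 1.21 RPKM and was chosen once its level was known.

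**Figure D3:**
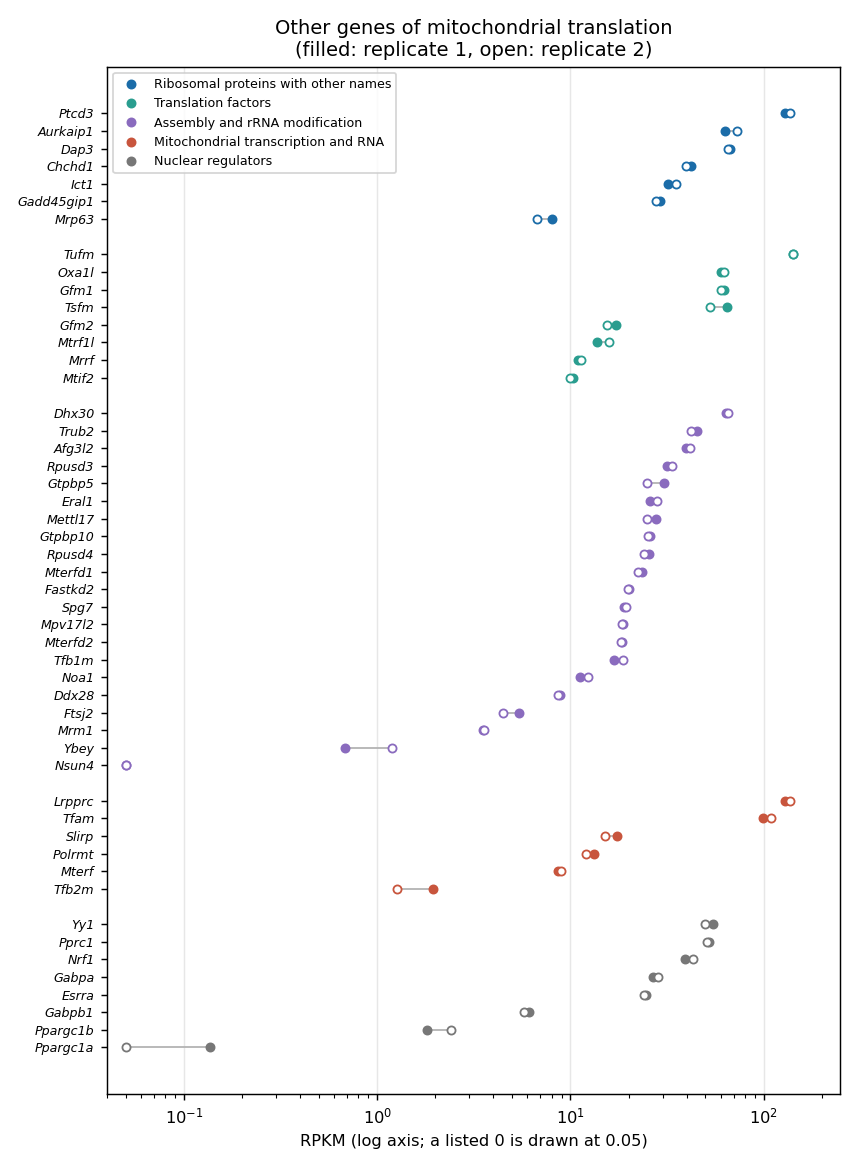
Level in RPKM on a log axis of ribosomal proteins with other names, translation factors, assembly and rRNA modification factors, genes of mitochondrial transcription and RNA, and nuclear regulators; filled points are replicate 1 and open points replicate 2, with a listed 0 drawn at 0.05. Tufm, Lrpprc and Ptcd3 stand highest, between 129 and 142 RPKM.

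Many members started close to a gene on the opposite strand. By the positions of the table (rn5), 24 of 71 members (33.8%) had an opposite-strand start within 1 kb, against 6.89% of all genes and 11.99% of detected genes. By subunit these were 16 of 42 large and 8 of 29 small subunit genes. In 21 cases the gene bodies pointed away from each other without overlap, with a median distance of 194 bp between starts. Mrpl46 (chromosome 1, 141445108 to 141453185, minus strand) and Mrps11 (chromosome 1, 141453419 to 141462799, plus strand) form the pair made of members of both subunits. Mrpl46 had 37.1 RPKM in replicate 1 and 42.4 RPKM in replicate 2, and Mrps11 had 48.6 and 46.1 RPKM. Some of the neighbours encode mitochondrial proteins, and 3 examples follow, chosen after their values were seen. Mrpl43 starts 128 bp from Peo1, the gene of the mitochondrial DNA helicase Twinkle, which was at 14.5 ± 2.13 RPKM beside 118 ± 7.37 RPKM for Mrpl43. Mrpl47 starts 266 bp from Ndufb5, of respiratory complex I, at 73.4 ± 1.68 RPKM beside 38.2 ± 0.568 RPKM for Mrpl47. Mrps12 starts 194 bp from Sars2, the mitochondrial seryl-tRNA synthetase gene, at 19.8 ± 1.85 RPKM beside 44.5 ± 1.28 RPKM for Mrps12. Mrpl46 and Mrps11 are each counted, as a member and as a neighbour. In 17 of 24 cases the member was higher than its neighbour, the reverse being true of, for example, Mrpl32 at 34.3 RPKM beside the proteasome gene Psma2 at 162 RPKM. The same share was not computed for other genes, and the member median (43.1 RPKM) lay above that of detected genes (16.7 RPKM). The count therefore shows no trait of these pairs. Whether counting used the strand is not given in the sources used here, so reads in the 3 overlapping cases, those of Mrpl13, Mrps2 and Mrps7, cannot be assigned with certainty.

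Promoter windows of the members held the ETS and YY1 motifs at higher shares than the windows of detected genes, while the share with the NRF1 motif was near theirs. RefSeq windows of 300 bases were found by identifier for 56 members. Of these 18 (32.1%) held the ETS motif, against 19.8% of the windows of detected genes and 9.22% of all 27457 windows. The YY1 motif stood in 14 (25%), against 6.28% of detected genes and 3.44% of all windows. The NRF1 motif stood in 8 (14.3%), against 11.3% of detected genes and 4.71% of all windows. At least 1 of the 3 motifs was found in 30 windows (53.6%), against 32.5% of detected genes. Both ETS and YY1 motifs stood in 6 member windows, and their matches overlapped in none of these. The share of other windows with both motifs was not computed, so this count has no background. The member windows had a median GC content of 55.8%, against 61.3% for detected genes and 52.3% for all windows. Windows with no match occurred at both ends of the range, among them Mrpl28, the highest member, and Mrpl40, the lowest detected one.

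**Figure D4:**
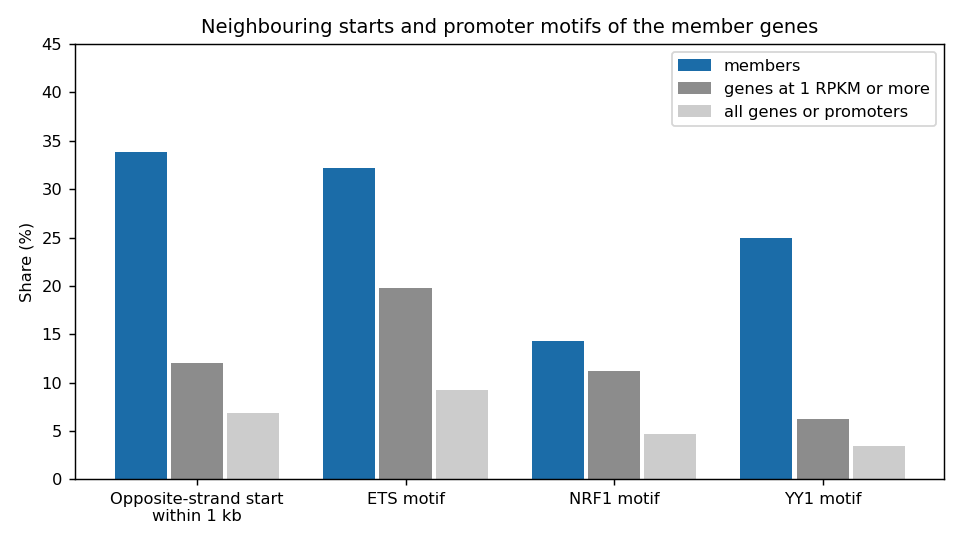
Share in percent of members (blue), of genes at 1 RPKM or more (dark grey) and of all genes or promoters (light grey) with an opposite-strand start within 1 kb and with each promoter motif. The members' bars are the highest in each group, at 33.8%, 32.1%, 14.3% and 25%.

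The replicates gave similar levels for most detected members. Across the 66 detected members the log2 ratio of RPKM + 1, replicate 1 over replicate 2, had a median of 0.03 and an SD of 0.20, against an SD of 0.27 over all detected genes and 0.20 over the 7627 genes within the members' range. No member passed a ratio of 1.5-fold, against 4.26% of all detected genes and 107 of the 7627 genes within the members' range (1.403%), a share at which a count of 0 is near the background. Replicate 1 was higher in 39 of 66 members, against 54.1% of all detected genes. The farthest apart were Mrpl40, at 6.82 and 4.37 RPKM and past 1.5-fold with a pseudocount of 0.1, and Mrpl14, at 10.6 and 15.8 RPKM. Mrpl53 had 82.4 RPKM in replicate 1 and 62.2 RPKM in replicate 2, Mrps34 had 24.9 and 32.7 RPKM, Mrps21 had 16.1 and 21.2 RPKM, and Mrps2 had 20.04 and 26.2 RPKM.

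Whole reads could be recovered from the value steps for 50 of the 66 detected members. They ranged from 37 reads over both libraries for Mrpl34 to 1549 for Mrpl12, with a median of 328. Mrpl34 rested on 17 reads in replicate 1 and 20 in replicate 2, and Mrpl14 on 21 and 32. Mrps28 rested on 26 and 29 reads. For Mrpl32, at a higher level, 27 and 26 reads were recovered with a model of 256 bp, the shortest that fits. Recovered reads can be too few by a common factor. Reads differed between replicates by more than a 95% counting interval allows in 4 of the 50 members, against 7.46% of 8108 genes. These were Mrpl40 (49 and 32 reads), Mrpl53 (152 and 117 reads), Mrpl20 (201 and 166 reads) and Mrpl2 (214 and 266 reads), of which Mrpl2 was higher in replicate 2. Mrpl14, with a log2 ratio of -0.58 and a standard error of 0.41 from counting, did not pass its 95% interval.

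**Figure D5:**
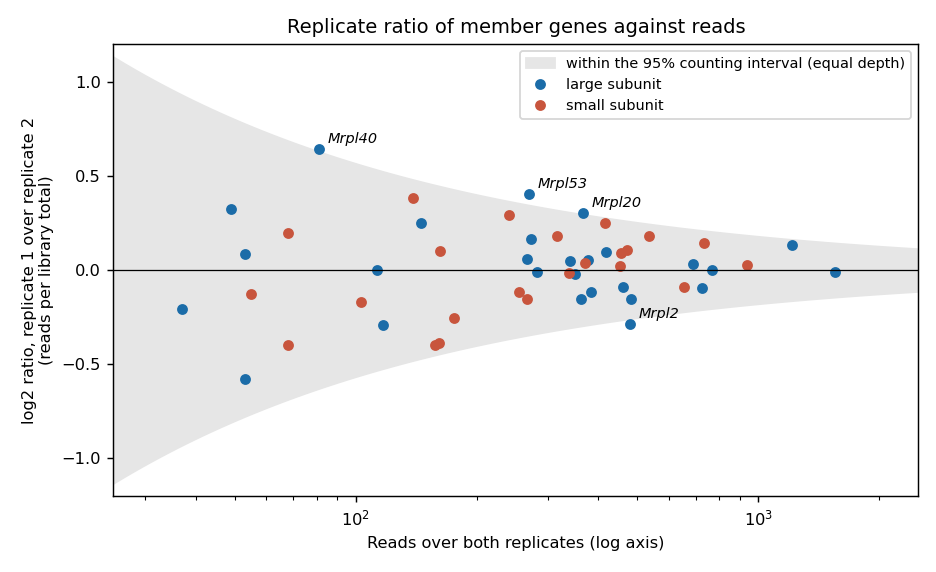
Log2 ratio of reads per library total, replicate 1 over replicate 2, against the reads over both replicates (log axis) for the 50 members with recovered reads; the grey band marks the 95% counting interval for libraries of equal depth. The ratios narrow as reads increase, and the 4 named genes lie past their own 95% interval.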

How the data were processed

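The authors deposited 1 table of RPKM values for RefSeq genes holding each library in its own column, whose name is the sample's title. TopHat 1.4.0 and CASAVA 1.8 are named, with the rn5 build, in the submitters' processing notes. How reads were counted, with or without strand and with which treatment of several map positions, is not given in the sources used here. Rows of the table (23716) were summed by Entrez identifier to 23282 genes, which changed no member.

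Since RPKM values are not counts and there is 1 group, levels are described with no model or test. Differences were taken on log2(RPKM + 1), a scale that shrinks those of low genes. Detection means a mean of at least 1 RPKM. Read totals are those at which the greatest number of rows with a locus under 6000 bp came out as whole reads (527 of 2700 rows in replicate 1, 525 of 2688 in replicate 2). Reads per gene used the shortest model from 60 bp up to the locus length (at most 20000 bp) that made both values whole within a relative tolerance of 3e-07. This held for 76.5% of 10599 genes, and for 1.42% after shifting the values slightly. Such reads can be too few by a common factor, which makes the counting error too large.

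Named genes are the 8 highest and 4 lowest detected of each subunit, all members under 1 RPKM, the 6 with the largest replicate ratio, Mrps18a, Mrps18b, Mrps18c, Mrps30 and Mrps36, and the 3 highest and 2 lowest of the other lists, others being named after their values were seen. Members and lists were chosen with earlier results of these data known. List members without a row (Mtif3, Mtrf1, Taco1, Mtg1, Mrm3, Malsu1, Rbfa, Ngrn, Mettl15 and Tefm) were not analysed here. Promoter sequences came from RefSeq (GRCr8), and coordinates of the 2 builds were not combined. Alternatives changed the detection minimum, the pseudocount, the scaling, the summary over members and the choice of members, and left out each replicate in turn. The procedures were tested on simulated libraries. The tools were pandas 2.3.3, numpy 2.4.6 and matplotlib 3.10.9 under Python 3.11.15.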

Additional observations from a re-analysis of the deposited data

How the results depend on the processing

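No result changed sign under any alternative run, and 66 members were detected with minima of 0.3 and 3 RPKM. The conserved minus specific difference within each subunit was not rerun with detected members only. In the large subunit those detected medians reverse the order, at 65.0 and 62.3 RPKM for conserved genes in replicates 1 and 2. For specific genes they were 50.4 and 49.8 RPKM. The large minus small difference (0.48) was 0.49 with a pseudocount of 0.1, 0.48 after rescaling each library to a sum of 1000000, 0.27 with means over members, 0.41 with detected members only and 0.28 with subunits from known structures. With choices made after seeing the data, it was 0.53 without regard to case, 0.31 without the 2 copies and 0.30 with the symbols RefSeq now gives. The member median (43.1 RPKM) was 98.6 after rescaling, 45.4 without regard to case and 44.9 without the copies. The difference from detected genes (1.32) was 1.68 and 0.98 with detection at 0.3 and 3 RPKM, 1.37 with a pseudocount of 0.1, 1.61 after rescaling, 0.96 with means, 1.43 with detected members only, and from 1.29 to 1.35 with either replicate left out. The difference from oxidative phosphorylation genes (-1.59) was -1.13 with means, and that from cytosolic ribosomal genes (-0.66) was -0.74 with detected members only. The conserved minus specific difference (-0.32) was -0.47 with means, -0.052 in the large and -0.65 in the small subunit. With a pseudocount of 0.1, 1 member, Mrpl40, passed 1.5-fold between replicates. The causes were not tested, beyond the members each alternative takes. No paired analysis was possible because the series has 1 group. Depth limits the members with few recovered reads, such as Mrpl34 and Mrpl14, while the reads recovered for Mrpl32 can be too few by a common factor.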

Other observations

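The lowest detected member lay beside a gene with a lower level still. Mrpl40 (rn5 chromosome 11, 89378582 to 89384418) starts 186 bp from Hira, a histone chaperone gene on the opposite strand. Mrpl40 had 6.82 RPKM in replicate 1 and 4.37 RPKM in replicate 2, and Hira had 0.668 and 0.218 RPKM. Both were higher in replicate 1, and for Hira this is a level under that of 3 reads in a model of 1 kb.

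The annotation deposited with the table was uneven across members. The gene ontology term for the mitochondrion was attached to 65 of 71 members (91.5%), against 5.89% of all genes. The term for a structural constituent of the ribosome was attached to 46 members (64.8%), against 1.36% of all genes. The term for the small subunit of the mitochondrial ribosome was attached to 10 members, of which Mrpl42 carries a large subunit name, and to 10 genes in all. The term for the large subunit was attached to 5 members and to 8 genes in all. Genes of the members were compact, with a median locus of 5799 bp among those detected, against 20226 bp for all detected genes. They were spread over 18 chromosomes, with 12 on chromosome 1, which is 16.9% of members against 14.3% of all genes.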
